A study of Mus musculus with 12 samples.

Results

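The genes followed here encode 10 enzymes that make serine and glycine or carry their one-carbon units on folate: Phgdh, Psat1, Psph, Shmt1, Shmt2, Mthfd1, Mthfd2, Mthfd1l, Aldh1l2 and Gldc. They were taken by symbol, and all 10 were found among the 54146 genes of each library. After OHT, transcripts of the serine synthesis enzymes and of the mitochondrial folate enzymes fell, more at Day 4 than at Day 2 for most of them. At Day 4, Mthfd2 stood at 0.484 and Psat1 at 0.511 times the vehicle level. From Day 2 to Day 4 that vehicle level changed to 1.481 times for Mthfd2 and 1.004 times for Psat1. Of the cytosolic members, Mthfd1 did not follow them, whereas Shmt1 was somewhat lower at Day 4 (0.895 times the vehicle level). Gldc, which breaks glycine down, rose at Day 4.

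RNA-seq libraries came from mouse embryonic stem cells (mESCs) of a C57BL/6 background, in which every group carried floxed Prdm10 alleles (exon 5, whose removal shifts the reading frame) and CreERT2 at the Rosa26 locus. CreERT2 is a Cre recombinase that enters the nucleus upon binding hydroxytamoxifen (OHT), and the Rosa26 locus is active in most cell types, so that deletion is not limited to a subset of cells by its promoter. Cells in serum and LIF received 50 nM OHT or the ethanol vehicle (EtOH) for 24 h and were collected at Day 2 or Day 4. This gave 4 groups of 3 libraries: Day2_EtOH and Day4_EtOH, with the genotype Prdm10F/F in the labels, and Day2_OHT and Day4_OHT, with the genotype Prdm10del/del. No group received OHT without carrying floxed alleles, so that effects of OHT or of Cre activity itself and of the deletion cannot be told apart. The study's methods state biological repeats for its experiments in general, but the sources used here do not say which step was repeated for the 3 libraries of a group, so p-values measure the spread between these libraries.

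Total expected counts ran from 35017667 to 41409992 over the 12 libraries. The gene-level count of Prdm10 was higher in the OHT libraries (log2 fold change of 1.44 ± 0.07 (SE) at Day 2 and 1.21 ± 0.06 (SE) at Day 4). A count over the whole gene is mostly made of exons outside the deleted part, so it does not check the labels. All 10 pluripotency markers were at a mean of 1 TPM or more in every group. Their summed level was 2640 to 2680 TPM in Day2_EtOH, 2690 to 2860 in Day2_OHT, 2470 to 2760 in Day4_EtOH and 2840 to 2950 in Day4_OHT, higher in OHT without overlap on both days. At Day 4 the sums of 7 fibroblast markers, for feeder cells (2.21 to 3.06 TPM in EtOH and 0.88 to 1.37 in OHT), 4 neural ectoderm markers (4.98 to 5.27 and 4.38 to 4.67) and 3 markers of the 2-cell-like state (0.75 to 0.78 and 0.31 to 0.71) were lower in OHT without overlap. Those of 4 trophectoderm markers (27.2 to 28.0 TPM in EtOH and 33.6 to 34.5 in OHT, nearly all from Tfap2c, with Cdx2 at or below 0.11 TPM) and 4 mesoderm markers (1.51 to 1.63 and 1.66 to 1.94) were higher, and 6 primitive endoderm markers overlapped (2.35 to 2.74 and 2.10 to 2.70). Other sums also drew their largest part from a single gene in all 12 libraries. This gene was Dppa5a for pluripotency (1130 to 1480 TPM) and Thy1 for fibroblasts (0.59 to 2.84 TPM). It was Nes for neural ectoderm (3.43 to 4.79 TPM) and Eomes for mesoderm (0.70 to 1.71 TPM). Each other fibroblast marker stayed at or below 0.27 TPM. Whether these sums have a part in the results below was not tested.

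Serine is made from an intermediate of glycolysis by PHGDH, PSAT1 and PSPH in that order. Serine hydroxymethyltransferases, SHMT1 in the cytosol and SHMT2 in mitochondria, then split serine into glycine and a one-carbon unit bound to tetrahydrofolate. In mitochondria MTHFD2 oxidises that unit, MTHFD1L releases it as formate and ALDH1L2 can oxidise it fully, whereas in the cytosol the single protein MTHFD1 carries out the corresponding interconversions and reattaches formate to folate. GLDC is the glycine-binding subunit of the glycine cleavage system, which breaks glycine down and passes its carbon to folate. Mouse embryonic stem cells are known for a high use of threonine as a further source of glycine, through threonine dehydrogenase.

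None of the 10 members was among the PRDM10-bound genes listed from the study's ChIP-seq. The share of bound genes over all genes was not taken, so this is not read as a trait of the members. Promoter sequences are shown so that members that moved together can be set beside one that moved the other way. Of the members, 9 had entries in the RefSeq promoter table (GRCm38.p6), and Aldh1l2 did not. The 250 bases before the start are given for Psat1 (chr19:15925060-15925309, minus strand) and Mthfd2 (chr6:83317605-83317854, minus strand), which had the largest falls among the abundant members, and for Gldc (chr19:30175442-30175691, minus strand), which rose. For Psat1, 2 starts were listed, and the stretch before 1 of them is shown. The stretches of Psat1 and Mthfd2 lie inside the gene spans given below, not at their outer ends. Each stretch is written 5′ to 3′ in lower case with CG dinucleotides in capitals.
Psat1: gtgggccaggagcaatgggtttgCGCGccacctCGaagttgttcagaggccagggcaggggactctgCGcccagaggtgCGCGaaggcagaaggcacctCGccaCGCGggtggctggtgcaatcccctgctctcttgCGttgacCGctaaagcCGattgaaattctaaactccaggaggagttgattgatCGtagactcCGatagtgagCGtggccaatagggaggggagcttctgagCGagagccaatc
Mthfd2: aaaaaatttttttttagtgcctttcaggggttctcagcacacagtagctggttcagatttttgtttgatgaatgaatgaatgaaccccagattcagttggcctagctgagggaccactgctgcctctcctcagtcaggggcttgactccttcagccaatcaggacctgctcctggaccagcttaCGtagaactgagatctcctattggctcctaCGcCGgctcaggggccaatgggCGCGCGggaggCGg
Gldc: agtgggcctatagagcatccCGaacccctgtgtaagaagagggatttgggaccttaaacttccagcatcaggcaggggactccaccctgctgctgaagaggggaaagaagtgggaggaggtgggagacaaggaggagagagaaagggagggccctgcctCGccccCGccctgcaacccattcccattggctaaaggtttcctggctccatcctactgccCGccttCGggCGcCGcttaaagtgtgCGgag
These stretches held 16 CG dinucleotides for Psat1, 7 for Mthfd2 and 8 for Gldc, against a median of 6 over all 32851 listed promoters. In the full windows of 300 bases (250 before to 50 after the start), 2 motifs were searched on both strands: TGATGNAA, a short form of the C/EBP-ATF composite element that ATF4 can bind, and CACGTG, the E-box that MYC proteins can bind. TGATGNAA was found in 3.97% of all promoters and CACGTG in 7.15%. Neither was found in the 10 windows listed for the 9 members, which says only that these letters do not occur in these windows.

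Levels are compared between genes in TPM, which is scaled to transcript length. In Day2_EtOH, Psat1 was the most abundant member at 150.7 ± 0.54 TPM (SD, n = 3). Phgdh (109.2 ± 4.10 TPM (SD, n = 3)) and Shmt1 (106.1 ± 2.13 TPM (SD, n = 3)) overlapped, and Mthfd1 followed at 98.7 ± 2.43 TPM (SD, n = 3). Shmt2 lay at 58.2, Mthfd2 at 43.5, Gldc at 32.1, Mthfd1l at 30.0 and Psph at 23.9 mean TPM. Aldh1l2 was far lower at 0.74 TPM. This order was not kept in Day4_OHT, where Mthfd1 (129.8 ± 1.32 TPM (SD, n = 3)) and Shmt1 (107.0 ± 1.94 TPM (SD, n = 3)) lay above Psat1 (83.4 ± 1.29 TPM (SD, n = 3)) and Phgdh (78.4 ± 1.27 TPM (SD, n = 3)), with no overlap between neighbours among these 4 genes. Gldc (38.5 TPM) also stood above Mthfd2 (33.4 TPM) there, whereas in Day4_EtOH Mthfd2 was at 70.0 and Gldc at 30.8 mean TPM. In Day4_EtOH, Mthfd1 (124.2 ± 6.53 TPM (SD, n = 3)) and Shmt1 (123.0 ± 4.41 TPM (SD, n = 3)) overlapped, and Gldc overlapped Mthfd1l (31.4 TPM).

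Changes were tested with DESeq2 on rounded expected counts, and a gene was called where its mean normalised count exceeded 100 and its Benjamini-Hochberg adjusted p was under 0.05. A normalised count is the expected count divided by the library's size factor. At Day 2, 5 of the 10 members were lower in OHT and 0 were higher. Among all 11642 genes tested, 10.7% were lower and 9.17% higher. Of the genes called there, 46.3% were higher, or 68.5% with total counts as scaling. At an unadjusted p below 0.05, 7 members were lower and 0 higher, and the share of all genes at that threshold was not taken. By edgeR, 6 members were lower and 0 higher, against 1334 and 1479 of 11644 genes. At Day 4, 8 of the 10 were lower and 2 were higher, against 21.7% lower and 23.5% higher among 11552 genes. The median log2 fold change of the members was -0.19 at Day 2 and -0.40 at Day 4, and that of all genes tested was -0.03 and 0.01. In normalised counts, the 3 Day2_OHT libraries lay below all Day2_EtOH libraries for 8 members and above them for Gldc, as they did for 26.9% and 18.7% of all genes. At Day 4 they lay below for 8 members and above for 2, against 29.5% and 33.5% of all genes. In bulk RNA, a smaller share of cells that express a gene and less RNA per cell cannot be told apart.

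**Figure D1:**
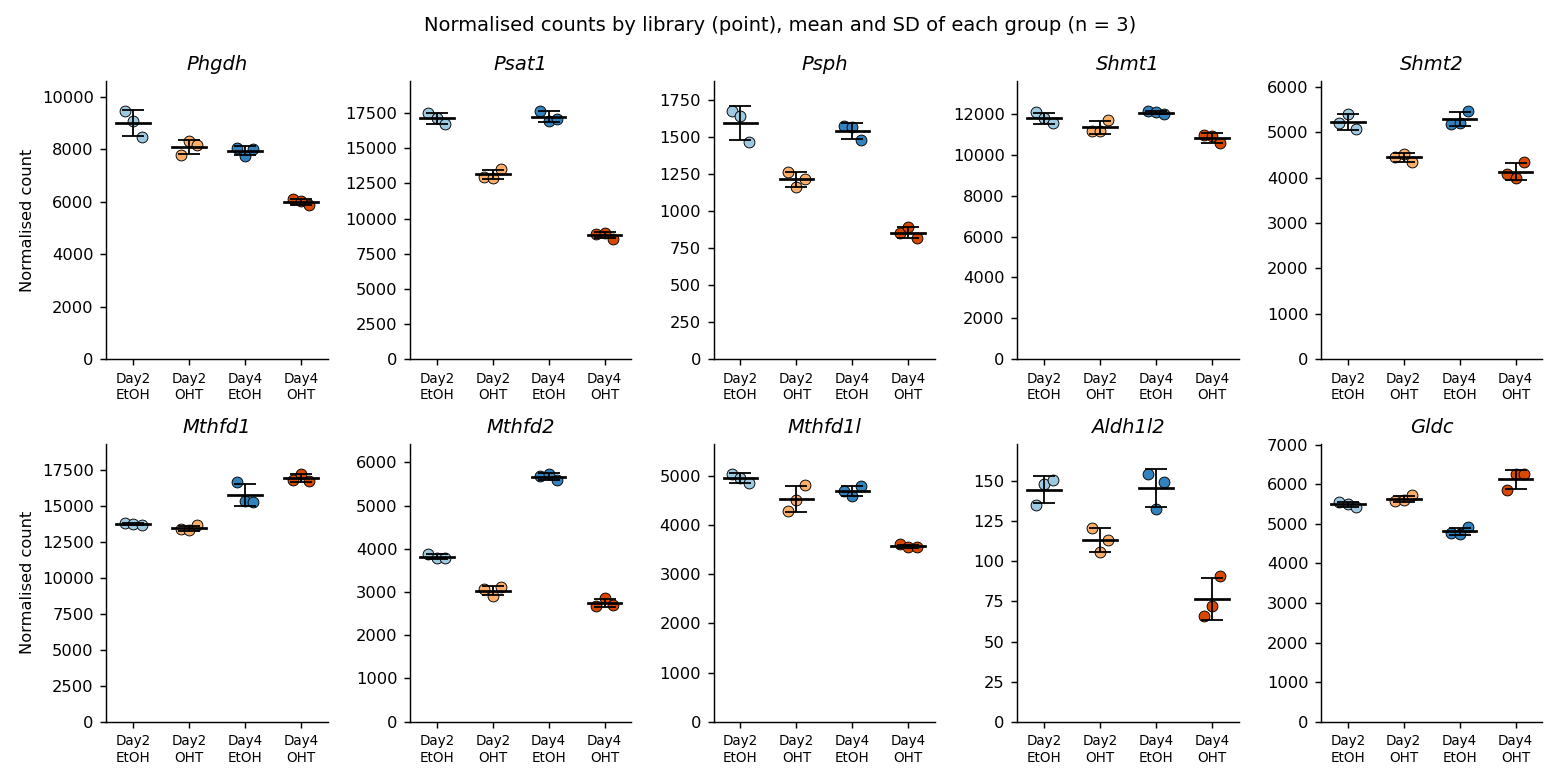
Normalised counts (vertical axis, from 0) of each member in the 12 libraries, with 1 point per library and the mean and SD of each group (n = 3). The 3 Day4_OHT points lie below all Day4_EtOH points for 8 genes and above them for Mthfd1 and Gldc, against 29.5% and 33.5% of all genes tested.

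Psat1, the aminotransferase of the second step (chr19:15904678-15947337, minus strand, GENCODE vM21 on GRCm38), showed the largest Day 4 fall of the 3 serine synthesis genes. Its normalised counts were 17519, 17174 and 16733 in Day2_EtOH and 12974, 12898 and 13539 in Day2_OHT. At Day 4 they were 17665, 16952 and 17112 in EtOH and 8931, 8974 and 8568 in OHT. The vehicle libraries of both days overlapped, and the OHT libraries lay below them in 2 separate steps. The log2 fold change was -0.38 ± 0.04 (SE, adjusted p = 2.18e-21) at Day 2 and -0.97 ± 0.03 (SE, adjusted p = 1.22e-197) at Day 4. At Day 4 it ranked as number 122 from the lowest of 11552 genes.

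Psph, the phosphatase that releases serine in the last step (chr5:129765558-129787449, minus strand), moved in the same way at a lower level. It had 1678, 1646 and 1464 normalised counts in Day2_EtOH and 1264, 1160 and 1219 in Day2_OHT. At Day 4 the values were 1577, 1568 and 1482 in EtOH and 854, 896 and 817 in OHT. No OHT library reached a vehicle library of the same day. The fall came to -0.39 ± 0.07 (SE, adjusted p = 5.99e-07) at Day 2 and -0.85 ± 0.06 (SE, adjusted p = 6.14e-38) at Day 4 on the log2 scale. The span of Psph overlaps that of Cct6a on the opposite strand. All other members except Phgdh overlap another annotated gene too, Mthfd2 and Mthfd1l on the same strand and Psat1, Shmt1, Shmt2, Mthfd1, Aldh1l2 and Gldc on the opposite strand. Libraries were stranded, but the strand setting of the counting is not given in the sources used here, so reads of overlapping genes may not be fully separated.

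Phgdh, the dehydrogenase of the first step (chr3:98313170-98339990, minus strand), changed less than either. Its normalised counts were 9460, 9059 and 8454 in Day2_EtOH and 7785, 8310 and 8149 in Day2_OHT, a narrow gap. At Day 4 they were 8054, 7746 and 8020 in EtOH and 6111, 6013 and 5877 in OHT, well apart. The log2 fold change was -0.15 ± 0.05 (SE, adjusted p = 0.0114) at Day 2 and -0.41 ± 0.03 (SE, adjusted p = 4.39e-30) at Day 4. The Day 2 call was lost without Day2_EtOH replicate 1 (-0.12, adjusted p = 0.15), without Day2_EtOH replicate 2 (-0.15, adjusted p = 0.1) and without Day2_OHT replicate 1 (-0.13, adjusted p = 0.111). It was also lost with total counts as scaling (-0.12, adjusted p = 0.0891) and with the length trend removed (-0.11, adjusted p = 0.0777). RSEM's posterior SD, which rises where reads are shared between genes, was 5.92 to 8.03 counts per library for Phgdh and at most 0.03 for the other 9 members. Summed over Phgdh, Psat1 and Psph, the serine synthesis transcripts came to 298.2 ± 6.93 TPM (SD, n = 3) in Day4_EtOH and 175.0 ± 2.35 TPM (SD, n = 3) in Day4_OHT, with no overlap (two-sided exact permutation p = 0.1, the smallest that 3 against 3 libraries allow).

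Of the serine hydroxymethyltransferases, the mitochondrial Shmt2 (chr10:127517123-127522444, minus strand) fell on both days. It had 5204, 5399 and 5066 normalised counts in Day2_EtOH against 4457, 4529 and 4338 in Day2_OHT, and 5190, 5199 and 5470 in Day4_EtOH against 4071, 3978 and 4334 in Day4_OHT. The groups did not overlap on either day. The log2 fold change was -0.23 ± 0.05 (SE, adjusted p = 1.03e-05) at Day 2 and -0.36 ± 0.04 (SE, adjusted p = 5.42e-16) at Day 4.

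The cytosolic Shmt1 (chr11:60788104-60811718, minus strand) differed little. At Day 2 its normalised counts were 12104, 11801 and 11563 in EtOH and 11206, 11169 and 11713 in OHT. The groups overlapped, and the log2 fold change of -0.06 ± 0.04 (SE, adjusted p = 0.37) did not pass the test, with a 95% interval from -0.134 to 0.02. In TPM the direction was the other one, since the 3 OHT libraries (108.8 to 114.0 TPM) lay above the EtOH libraries (104.2 to 108.4 TPM). At Day 4 the values were 12177, 12098 and 12001 in EtOH and 10993, 10956 and 10581 in OHT. They did not overlap, and Shmt1 fell by 0.16 on the log2 scale (SE 0.03, adjusted p = 1.59e-06).

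Mthfd2, the mitochondrial dehydrogenase and cyclohydrolase of one-carbon units (chr6:83305691-83325908, minus strand), had the largest Day 4 difference of the 10. Its normalised counts were 3888, 3779 and 3790 in Day2_EtOH and 3059, 2913 and 3126 in Day2_OHT. At Day 4 they were 5683, 5740 and 5583 in EtOH and 2678, 2862 and 2706 in OHT. The vehicle libraries were higher at Day 4 than at Day 2, while the OHT libraries were not. The log2 fold change was -0.33 ± 0.05 (SE, adjusted p = 5.65e-10) at Day 2 and -1.05 ± 0.04 (SE, adjusted p = 4.5e-143) at Day 4, the latter number 100 from the lowest among the genes tested.

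Mthfd1l, the mitochondrial synthetase that yields formate (chr10:3973118-4167081, plus strand), had 5042, 4953 and 4850 normalised counts in Day2_EtOH and 4275, 4503 and 4806 in Day2_OHT. The Day2_OHT libraries were spread widely, and the log2 fold change of -0.13 ± 0.05 (SE, adjusted p = 0.0589) missed the threshold. Without Day2_OHT replicate 3, it passed (-0.17, adjusted p = 0.00329). At Day 4 the counts were 4679, 4588 and 4790 in EtOH and 3603, 3557 and 3541 in OHT, a clear gap. The Day 4 log2 fold change was -0.40 ± 0.04 (SE, adjusted p = 7.42e-23).

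Aldh1l2, the mitochondrial formyltetrahydrofolate dehydrogenase (chr10:83487450-83534140, minus strand), was expressed far below the others. It had 135, 148 and 151 normalised counts in Day2_EtOH and 121, 106 and 113 in Day2_OHT. At Day 4 there were 155, 132 and 150 in EtOH and 66.1, 72.2 and 91.1 in OHT. The groups did not overlap on either day, yet only the Day 4 difference was called (-0.93 ± 0.20 (SE), adjusted p = 2.08e-05), while that of Day 2 was -0.35 ± 0.18 (SE, adjusted p = 0.17). With edgeR the Day 2 difference passed (-0.34, adjusted p = 0.0412). Its effective length varied from 2412 to 5350 bases between libraries, and its TPM, which enters a ratio and the sums below, carries that variation. With effective lengths as offsets the Day 4 value was -0.59 and still called.

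In the cytosol, Mthfd1 (chr12:76255298-76319803, plus strand) had 13862, 13757 and 13677 normalised counts in Day2_EtOH and 13449, 13312 and 13666 in Day2_OHT. These values lay within a few percent of each other, and the log2 fold change of -0.03 ± 0.04 (SE, adjusted p = 0.654) did not pass the test (95% interval from -0.1 to 0.04). At Day 4 the counts were 16700, 15387 and 15291 in EtOH and 16846, 17277 and 16782 in OHT. The highest vehicle library lay just under the lowest OHT library, and the TPM values of the 2 groups overlapped. The rise of 0.10 ± 0.04 (SE, adjusted p = 0.0159) on the log2 scale was called, but not without Day4_EtOH replicate 2 (0.08, adjusted p = 0.125), Day4_EtOH replicate 3 (0.08, adjusted p = 0.114), Day4_OHT replicate 1 (0.11, adjusted p = 0.0574) or Day4_OHT replicate 2 (0.09, adjusted p = 0.108).

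Gldc (chr19:30098447-30175429, minus strand) had 5539, 5498 and 5431 normalised counts in Day2_EtOH and 5566, 5594 and 5716 in Day2_OHT. These differed by 0.04 ± 0.04 (SE, adjusted p = 0.64) on the log2 scale, which did not pass. At Day 4 the counts were 4775, 4736 and 4911 in EtOH and 5855, 6247 and 6269 in OHT, with no overlap. Gldc rose by 0.35 ± 0.04 (SE, adjusted p = 1.74e-17) at Day 4.

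**Figure D2:**
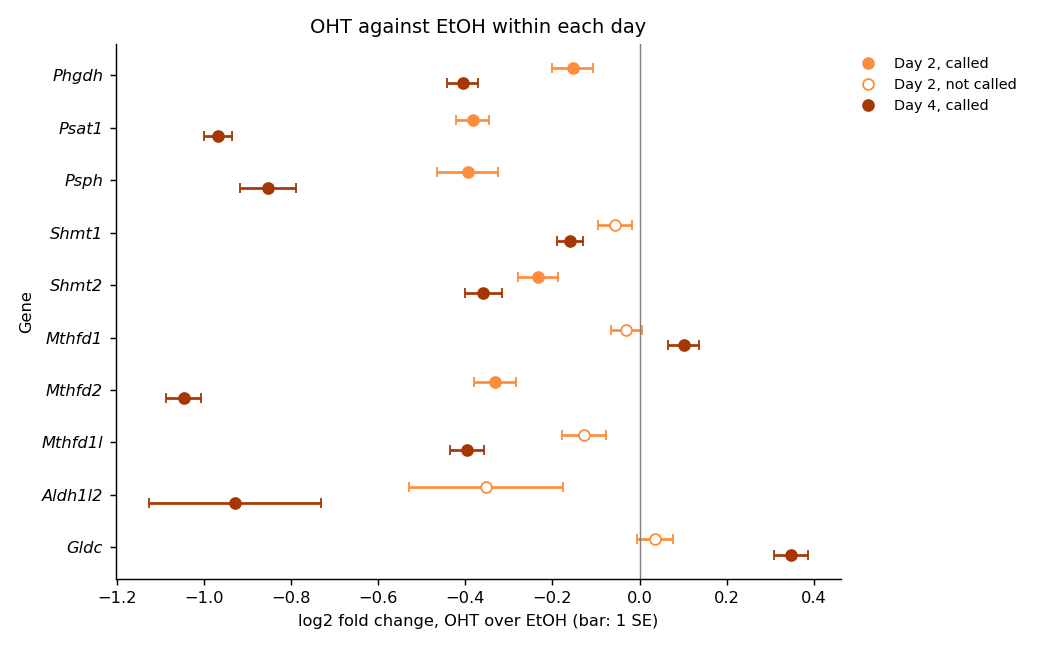
Log2 fold change of OHT over EtOH (horizontal axis, bars of 1 SE) for each member at Day 2 and Day 4, with filled points for called genes. The Day 4 points run from -1.05 for Mthfd2 to 0.35 for Gldc and lie farther from 0 than the Day 2 points for all 10 genes.

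A treatment-by-day interaction term, fitted on the 12 libraries together, tested whether the OHT effect changed with time. The Day 4 effect was more negative for 5 members and more positive for 2, against 13.6% and 18.7% of 11612 genes. The 5 were Mthfd2 (-0.71 ± 0.06 (SE), adjusted p = 3.33e-35), Psat1 (-0.58 ± 0.05 (SE), adjusted p = 3.41e-35), Psph (-0.46 ± 0.09 (SE), adjusted p = 7.64e-06), Mthfd1l (-0.26 ± 0.06 (SE), adjusted p = 8.84e-05) and Phgdh (-0.25 ± 0.06 (SE), adjusted p = 0.000238). The 2 were Gldc (0.31 ± 0.05 (SE), adjusted p = 5.85e-09) and Mthfd1 (0.13 ± 0.05 (SE), adjusted p = 0.0241). The difference did not pass for Shmt1 (-0.10, adjusted p = 0.0718), Shmt2 (-0.12, adjusted p = 0.114) or Aldh1l2 (-0.57 ± 0.23 (SE), adjusted p = 0.0552). The call for Mthfd1 was lost when any of 7 libraries was left out, namely Day2_EtOH replicate 1 or 2, Day2_OHT replicate 1 or 2, Day4_EtOH replicate 2 or 3, or Day4_OHT replicate 2 (adjusted p from 0.0523 to 0.109). It was also lost with total counts as scaling (0.09, adjusted p = 0.0959). With total counts, 8 members had a more negative Day 4 effect and 1 a more positive one, against 2098 and 1664 of 11621 genes. All genes called there were split 44.2% above 0, against 58.0% with median-of-ratios scaling. With the length trend removed, Shmt1 and Shmt2 passed as well (-0.13, adjusted p = 0.0124, and -0.17, adjusted p = 0.02). Without Day4_OHT replicate 3, Shmt2 (-0.16, adjusted p = 0.0393) and Aldh1l2 (-0.72, adjusted p = 0.0259) passed, and with edgeR Aldh1l2 did (-0.56, adjusted p = 0.0187).

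The same data can be read as the change from Day 2 to Day 4 within each treatment. These comparisons use the libraries above again and are not independent of them. In EtOH, 2 members fell and 2 rose, while 20.5% of 11570 genes fell and 20.6% rose. Mthfd2 rose by 0.57 ± 0.04 (SE, adjusted p = 5.35e-44) and Mthfd1 by 0.20 ± 0.04 (SE, adjusted p = 3.22e-06) on the log2 scale, while Phgdh (-0.18 ± 0.04 (SE), adjusted p = 0.000187) and Gldc (-0.19 ± 0.04 (SE), adjusted p = 6.56e-06) fell. The log2 change of Psat1 was 0.01, with a 95% interval from -0.06 to 0.071. In OHT, 5 members fell and 2 rose, against 23.0% and 30.8% of 11633 genes. Psat1 (-0.57 ± 0.04 (SE)), Psph (-0.50 ± 0.07 (SE)), Phgdh (-0.43 ± 0.04 (SE)), Mthfd1l (-0.34 ± 0.05 (SE)) and Mthfd2 (-0.14 ± 0.05 (SE)) fell, with adjusted p-values of 0.0162 or less. Mthfd1 (0.34 ± 0.03 (SE), adjusted p = 1.69e-23) and Gldc (0.13 ± 0.04 (SE), adjusted p = 0.00803) rose. The value of Aldh1l2 was -0.56 ± 0.21 (SE, adjusted p = 0.0218), but its mean of 95.6 normalised counts was under the minimum, so it was not counted. Shmt2 (-0.10 ± 0.05 (SE), adjusted p = 0.0591) did not pass, but did without Day2_OHT replicate 3 (-0.12, adjusted p = 0.0266), without Day4_OHT replicate 3 (-0.14, adjusted p = 0.0146) and with edgeR (-0.11, adjusted p = 0.0237). The fall of Mthfd2 in OHT was not called without Day2_OHT replicate 1 (-0.13, adjusted p = 0.0629), Day2_OHT replicate 3 (-0.12, adjusted p = 0.0596), Day4_OHT replicate 1 (-0.12, adjusted p = 0.116) or Day4_OHT replicate 3 (-0.13, adjusted p = 0.091). The rise of Gldc in OHT was not called without Day4_OHT replicate 2 (0.11, adjusted p = 0.0627) or Day4_OHT replicate 3 (0.11, adjusted p = 0.063), or with total counts as scaling (0.10, adjusted p = 0.0507).

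**Figure D3:**
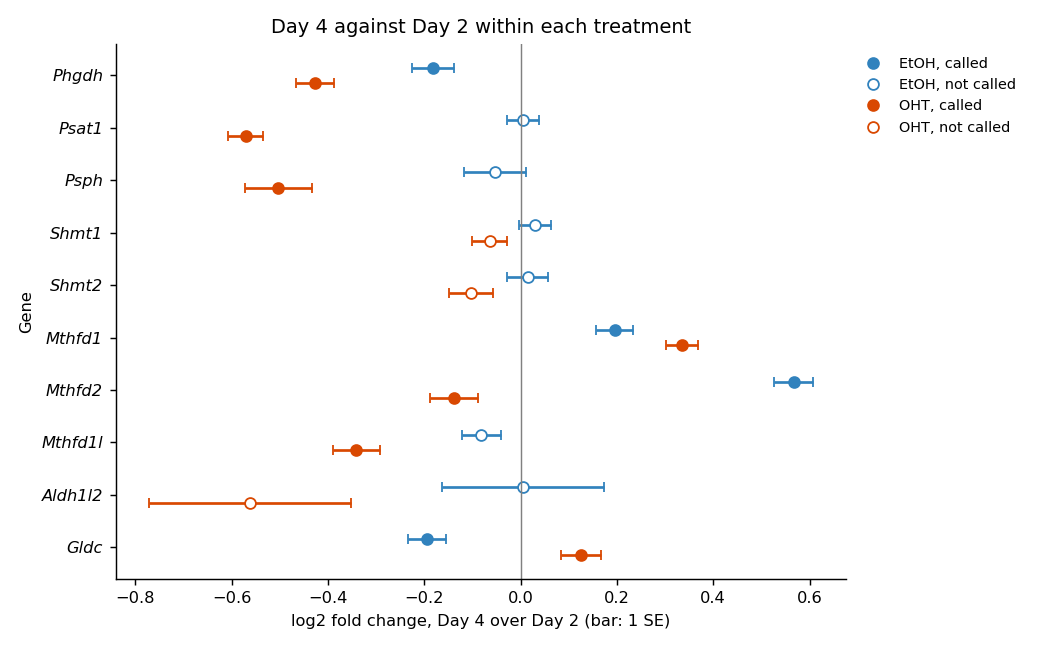
Log2 fold change of Day 4 over Day 2 (horizontal axis, bars of 1 SE) within EtOH and within OHT for each member, with filled points for called genes. Mthfd2 lies at 0.57 in EtOH and -0.14 in OHT, and Gldc at -0.19 in EtOH and 0.13 in OHT.

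Ratios of TPM within a library compare enzymes with each other without a size factor. Mthfd2 over Mthfd1 was 0.451, 0.434 and 0.436 in Day2_EtOH and 0.357, 0.342 and 0.359 in Day2_OHT. At Day 4 it was 0.537, 0.584 and 0.573 in EtOH and 0.253, 0.261 and 0.257 in OHT. The ratio thus stood apart between treatments on both days, by -0.32 at Day 2 and -1.14 at Day 4 on the log2 scale. Psat1 over Phgdh went from 1.57 ± 0.01 (SD, n = 3) in Day4_EtOH to 1.06 ± 0.01 (SD, n = 3) in Day4_OHT, and Psph over Phgdh from 0.241 ± 0.007 (SD, n = 3) to 0.168 ± 0.003 (SD, n = 3). Mthfd1l over Mthfd1 was 0.253 ± 0.011 (SD, n = 3) and 0.180 ± 0.005 (SD, n = 3) in the same groups. Shmt2 over Shmt1 was lower in OHT by nearly the same amount on both days (-0.21 at Day 2 and -0.20 at Day 4 on the log2 scale). Over the 12 comparisons (6 ratios on 2 days), 10 had groups that did not overlap, each with a two-sided exact permutation p of 0.1 (0.12 after Benjamini-Hochberg adjustment), the smallest possible with 3 against 3. The others were Psph over Phgdh at Day 2 (exact permutation p = 0.2, adjusted 0.218) and Aldh1l2 over Mthfd1 at Day 2 (exact permutation p = 0.5, adjusted 0.5). Several ratios share Mthfd1 or Phgdh, and all use the libraries of the fold changes above, so they are not independent of each other or of those.

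**Figure D4:**
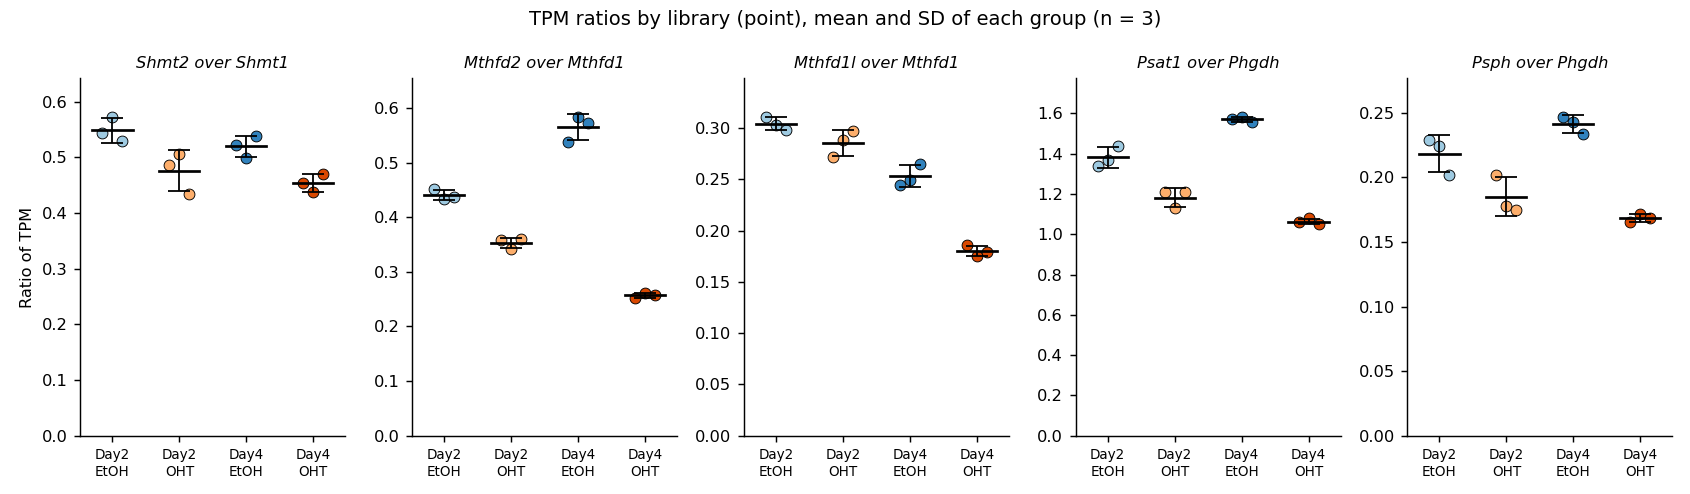
Ratio of TPM between pairs of enzymes (vertical axis, from 0) in the 12 libraries, with the mean and SD of each group (n = 3). Mthfd2 over Mthfd1 is highest in Day4_EtOH (mean 0.565) and lowest in Day4_OHT (mean 0.257).

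Summed over the 10 members, the level was 653.1 ± 2.16 TPM (SD, n = 3) in Day2_EtOH and 615.1 ± 9.08 TPM (SD, n = 3) in Day2_OHT. At Day 4 it was 742.3 ± 14.1 TPM (SD, n = 3) in EtOH and 556.2 ± 3.76 TPM (SD, n = 3) in OHT. The groups did not overlap on either day (two-sided exact permutation p = 0.1 each). The 4 mitochondrial enzymes Shmt2, Mthfd2, Mthfd1l and Aldh1l2 together went from 166.1 ± 1.19 to 105.8 ± 2.14 TPM (SD, n = 3) at Day 4, whereas the cytosolic Shmt1 and Mthfd1 together stood at 247.2 ± 7.44 and 236.8 ± 2.82 TPM (SD, n = 3), which overlapped. At Day 2 the cytosolic sum was higher in OHT (214.6 ± 1.84 TPM (SD, n = 3)) than in EtOH (204.8 ± 4.16 TPM (SD, n = 3)), with no overlap (two-sided exact permutation p = 0.1), although neither gene had a higher mean normalised count in OHT.

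Across the 12 libraries, log2 normalised counts of Psat1 and Psph had a Pearson r of 0.989, those of Phgdh and Mthfd1l 0.971, and those of Mthfd2 and Gldc -0.939. Of the 45 pairs of members, 13 had an r above 0.9 and 15 an r below 0, each of which involved Mthfd1 or Gldc. These are descriptions, since the 12 libraries fall into 4 groups and share normalisation. Within groups, after removal of group means, the median r over the 45 pairs was 0.157. Psat1 and Shmt1 kept an r of 0.925 there, while Mthfd2 and Gldc had 0.377.

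The genes most like the members' mean standardised profile over the 12 libraries, among genes above the minimum mean, were Galnt10 (r = 0.990), Cln8 (0.989), Atg101 (0.988), Eef1d (0.987) and Sars (0.987). Galnt10 (log2 fold change of -3.03 at Day 2 and -5.68 at Day 4), Cln8 (-1.56 and -2.74) and Eef1d (-1.05 and -1.71) fell more than any member at Day 4. Atg101 (-0.26 and -0.50) and Sars, the cytosolic seryl-tRNA synthetase (-0.32 and -0.50), fell within the members' range. Psat1 itself had an r of 0.984 with that profile, Mthfd1 -0.407 and Gldc -0.808. Each member is part of that mean, so its r cannot be set beside those of the other genes.

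The other genes of serine, glycine and folate metabolism were taken from 4 lists of 46 genes in all, of which 35 were above the minimum mean at Day 2 and 36 at Day 4. At Day 2, 4 were lower and 0 higher by DESeq2. At an unadjusted p below 0.05 there were 7 lower and 1 higher, and the share of all genes at that threshold was not taken. By edgeR, 3 were lower and 1 higher, against 1334 and 1479 of 11644 genes. At Day 4, 12 were lower, 4 were higher and 20 did not pass. Among all genes, 10.7% were lower and 9.17% higher at Day 2, and 21.7% and 23.5% at Day 4. Their median Day 4 log2 fold change was -0.05, against -0.40 for the 10 members and 0.01 for all genes.

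The list for serine and glycine use also held Tdh and Gcat, which act in the route from threonine to glycine. Of its 9 genes measured at Day 4, 3 rose and 2 fell, and edgeR called 3 higher and 3 lower. Of all genes, 23.5% rose and 21.7% fell by DESeq2, and edgeR called 3284 higher and 3070 lower of 11552. Tdh, the threonine dehydrogenase, had a mean normalised count of 13780 ± 11.3 (SD, n = 3) in Day4_EtOH and 19482 ± 340.5 (SD, n = 3) in Day4_OHT, a rise of 0.50 ± 0.03 (SE, adjusted p = 1.37e-67) on the log2 scale. Gcat, which completes the conversion of threonine to glycine, rose by 0.53 ± 0.05 (SE, adjusted p = 1.76e-22), and its symbol belongs to 2 gene identifiers, of which the one with the higher count was taken. The partners of Gldc in the glycine cleavage system split. Amt, the aminomethyltransferase, rose by 0.53 ± 0.04 (SE, adjusted p = 7.49e-32) at Day 4, while Gcsh, the lipoyl carrier, fell on both days (-0.11, adjusted p = 0.0359, and -0.38 ± 0.03 (SE), adjusted p = 1.68e-31). Dld, the dehydrogenase shared with other mitochondrial complexes, fell at Day 4 (-0.16 ± 0.04 (SE), adjusted p = 0.000851). At Day 2, Tdh, Gcat, Amt and Dld had log2 fold changes of 0.09, 0.01, 0.05 and -0.11 that did not pass. Tdh passed at Day 2 with edgeR (0.10, adjusted p = 0.0389), with total counts as scaling (0.12, adjusted p = 0.00966), with the length trend removed (0.13, adjusted p = 0.00352) and with all 12 libraries in 1 fit (0.09, adjusted p = 0.00579), and Dld without Day2_EtOH replicate 2 (-0.16, adjusted p = 0.0259). The Day 2 call of Gcsh was lost without Day2_EtOH replicate 1 or 2 or Day2_OHT replicate 2 (-0.11 to -0.09, adjusted p from 0.134 to 0.18), with edgeR (adjusted p = 0.0521) and with each other scaling tried.

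For each list below, the share over all genes at Day 4 was 21.7% lower and 23.5% higher by DESeq2. By edgeR, 3070 were lower and 3284 higher of 11552 genes, and the share at an unadjusted p was not taken. Of 9 measured genes for folate uptake, storage and reduction, 4 fell and 0 rose at Day 4 by DESeq2 (5 fell and 0 rose at an unadjusted p below 0.05, and edgeR called 5 and 1). Tyms, the thymidylate synthase (-0.01, adjusted p = 0.903), and Slc25a32, the mitochondrial folate carrier (-0.12, adjusted p = 0.112), did not pass. Of 9 other folate and methyl transfer genes, 3 fell and 1 rose at Day 4, and edgeR called 3 lower and 2 higher. Mat2a, which makes S-adenosylmethionine and was the only listed gene also on the study's list of PRDM10-bound genes, fell on both days (-0.13, adjusted p = 0.00313, and -0.24, adjusted p = 3.98e-13), although with total counts as scaling the Day 2 call was lost (-0.10, adjusted p = 0.0545). Aldh1l1, the cytosolic counterpart of Aldh1l2, rose at Day 4 (0.43 ± 0.17 (SE), adjusted p = 0.0299), a call lost without any 1 of the 6 libraries (adjusted p from 0.056 to 0.165). With a mean of 146 normalised counts it was the least abundant of the genes called in these lists. Mthfd2l, a mitochondrial relative of Mthfd2 with a mean of 135 normalised counts, had 0.30 ± 0.17 (SE, adjusted p = 0.181), but passed with effective lengths as offsets (0.55, adjusted p = 0.0164) and with edgeR (0.30, adjusted p = 0.0423). With edgeR, Slc25a32 passed too (-0.12, adjusted p = 0.0188). Purine synthesis takes up folate-bound formyl units at some of its steps, not at all of them. Of 9 genes listed for it, 3 fell and 0 rose at Day 4 (3 fell and 0 rose at an unadjusted p below 0.05, and edgeR called 3 and 0). Impdh2, of guanine nucleotide synthesis, fell on both days (-0.14, adjusted p = 0.00445, and -0.20, adjusted p = 1.82e-10), though its Day 2 call was lost without Day2_EtOH replicate 2 (adjusted p = 0.056) or Day2_OHT replicate 2 (adjusted p = 0.0562), with total counts as scaling (adjusted p = 0.0535) and with the length trend removed (adjusted p = 0.0722).

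**Figure D5:**
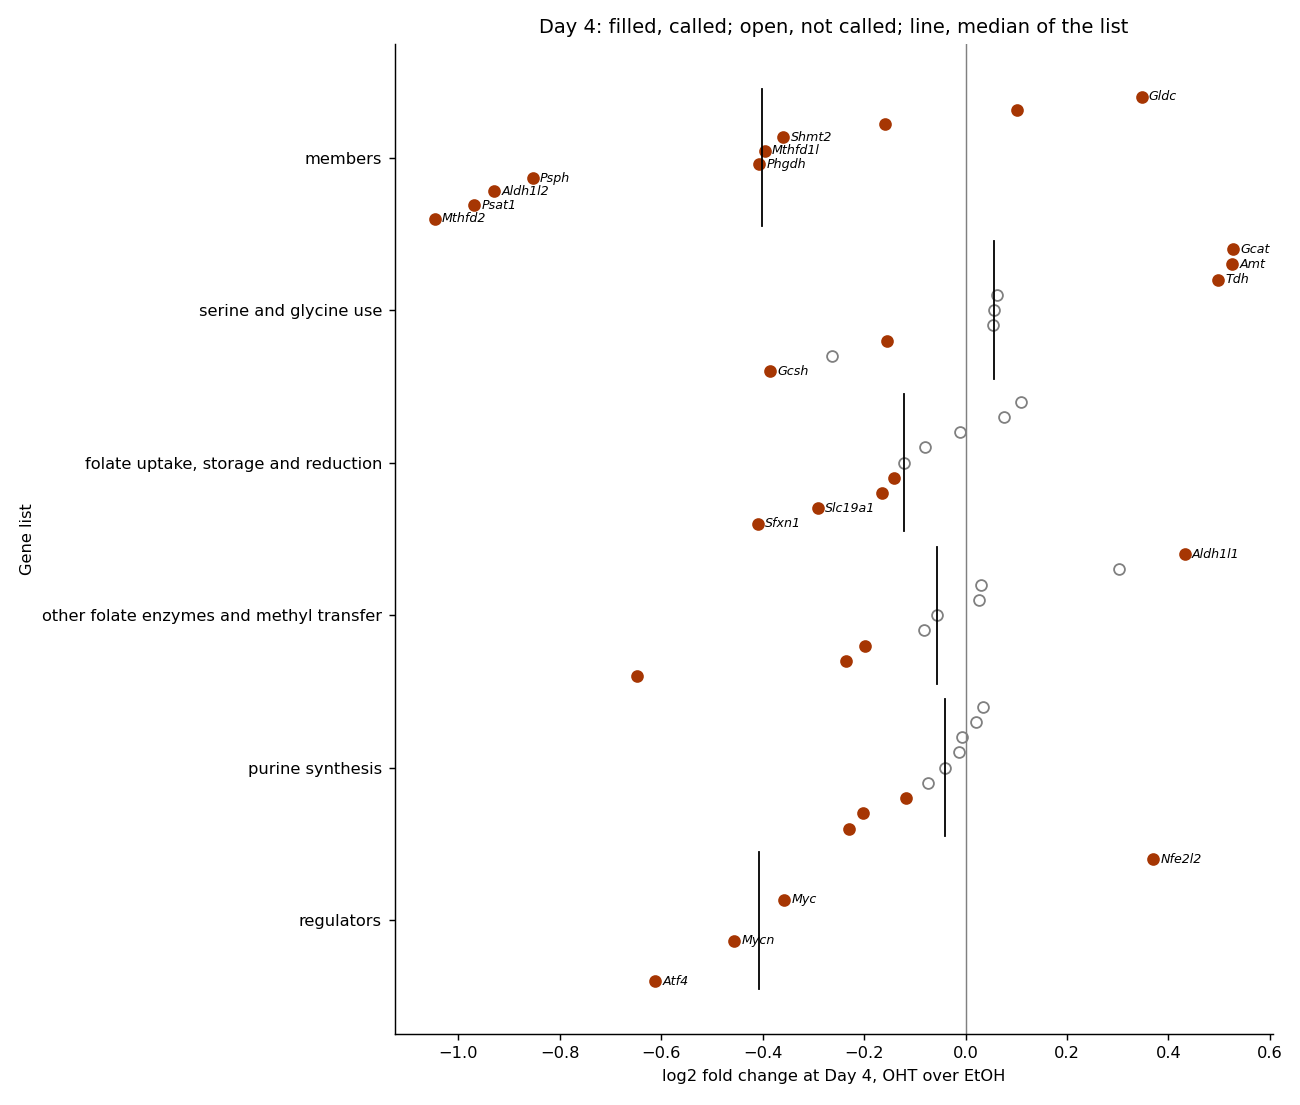
Day 4 log2 fold change of OHT over EtOH (horizontal axis) for the members and for each list of related genes above the minimum mean, with filled points for called genes and a line at the median of each list. Some of the called genes are labelled. The median of the members lies at -0.40, and those of the 4 metabolic lists lie between -0.12 and 0.06.

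Of the transcription factors that textbooks name for these genes, Atf4, which raises amino acid synthesis genes under stress, was, like Mthfd2, highest in Day4_EtOH. Its mean normalised count was 7162 ± 90.6 (SD, n = 3) in Day2_EtOH, 6298 ± 409 (SD, n = 3) in Day2_OHT, 10365 ± 92.4 (SD, n = 3) in Day4_EtOH and 6795 ± 126 (SD, n = 3) in Day4_OHT. It fell on both days (-0.18 ± 0.05 (SE), adjusted p = 0.00286, and -0.61 ± 0.03 (SE), adjusted p = 1.69e-79), and it rose from Day 2 to Day 4 in EtOH by 0.53 ± 0.03 (SE, adjusted p = 1.11e-52). ATF4 is largely controlled at translation, which RNA counts do not measure. Mycn fell on both days (-0.32, adjusted p = 7.46e-10, and -0.46, adjusted p = 1.94e-24), Myc was lower at Day 4 (-0.36, adjusted p = 7.29e-06), and Nfe2l2 rose on both days (0.14, adjusted p = 0.0409, and 0.37, adjusted p = 1.22e-14). At Day 2, Atf4 was not called without Day2_OHT replicate 2 (-0.15, adjusted p = 0.0541), and Nfe2l2 was not called when any 1 library was left out (adjusted p from 0.0656 to 0.123).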

How the data were processed

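Prdm10-floxed mESCs were exposed for 24 h to 50 nM OHT or to EtOH and collected at Day 2 or Day 4. Sample titles gave the group of all 12 libraries. For the deposited expected counts, the authors aligned stranded read pairs from rRNA-depleted total RNA to GRCm38.p6 with STAR (version 2.6.0c) and quantified GENCODE vM18 genes with RSEM, one library at a time. The deposited TPM and FPKM values come from the same RSEM step and are scaled within each library. The authors' tables of log2 fold changes and p-values were read for gene symbols alone.

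DESeq2 (version 1.42.0, in R 4.3.3) was run on the rounded expected counts with the Wald test, median-of-ratios scaling and independent filtering. The study's methods name DESeq2, in an earlier version, and the rule for a call (an adjusted p below 0.05 and a mean above 100). Each day and each treatment was fitted on its 6 libraries, and the interaction on all 12. Tests ran over all genes. Alternatives were edgeR (version 4.0.16), scaling by TMM or by total counts, offsets from effective lengths, subtraction of a loess fit of log2 counts on gene length in each library (span 0.3, after adding 0.5), the replicate number as a block, that block together with the length fit, 1 joint fit of the 12 libraries, no requirement on the mean, p-values adjusted only over genes that passed it, and each library left out. Sums and ratios used TPM, with FPKM and normalised counts as alternatives. A pseudocount of 1 was added for correlations of log2 normalised counts. The fits were tested on simulated data.

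The counts of libraries from the same group differed by a chi-square of 3.41 to 11.2 per gene, more than sampling gives, so none was treated as a duplicate. Amplified read pairs carry no molecular identifiers and do not each stand for 1 molecule, so the spread over libraries is the measure of error. The members and gene lists were chosen with earlier results of these data known. All members were named. Genes of the other lists were named where both days gave a call in 1 direction or called with an absolute log2 fold change above 0.5, with direct partners named in any case, and 2 genes that this rule names are not reported here. Myc is outside that rule and was named after its value was seen. The 5 genes most alike were taken by Pearson's r with the members' mean standardised profile. Coordinates are from GENCODE vM21 on GRCm38, and promoters from RefSeq.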

Additional observations from a re-analysis of the deposited data

Results flagged for a closer look

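For 7 members the OHT effect differed between the days by the interaction test of DESeq2 given above. It was more negative at Day 4 for 5 of them and more positive for 2, against 13.6% and 18.7% of 11612 genes. The Day 4 effect minus the Day 2 effect on the log2 scale was -0.25 for Phgdh, -0.58 for Psat1, -0.46 for Psph, -0.71 for Mthfd2, -0.26 for Mthfd1l, 0.13 for Mthfd1 and 0.31 for Gldc. The call for Mthfd1 was lost in several fits with 1 library left out and with total counts as scaling, as given above. Groups of 3 libraries were too small for a check of single outlying samples.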

How the results depend on the processing

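The replicate numbers were not taken to pair the samples. Deviations of same-numbered EtOH and OHT libraries correlated at 0.081, 0.106 and -0.034 at Day 2 and at 0.158, -0.151 and -0.245 at Day 4. Those of differently numbered libraries ran from -0.335 to 0.304 at Day 2 and from -0.312 to 0.416 at Day 4. With 3 libraries per group this cannot settle whether the numbers pair them, so the fits with the replicate block are alternatives only. Over 16 alternatives per comparison, the number of members called lower ranged from 4 to 6 at Day 2 and stayed at 8 at Day 4. Over all genes at Day 2, 572 of 11643 were lower with the block and length trend removed, and 1823 of 11612 in the joint fit. At Day 4, 1856 of 11555 were lower with the block and 3070 of 11552 with edgeR. Between the days in EtOH, 2 members fell and 2 rose under each alternative, near the 20.5% and 20.6% of all genes in the main fit. With the replicate block, the fall of Mthfd2 from Day 2 to Day 4 in OHT was not called (-0.14, adjusted p = 0.0772). Leaving out 1 library gave 1 to 2 members called higher at Day 4, in the interaction and in the OHT change between days. The main fits called 23.5%, 18.7% and 30.8% of all genes higher there. In the interaction, 1 member was more positive with the replicate block and length trend removed, against 1709 of 11615 genes. With total counts, 8 members were more negative and 1 more positive, against 2098 and 1664 of 11621 genes. In OHT, 1 member rose between the days with total counts, against 3112 of 11643 genes. The summed level of the members differed by -0.09 at Day 2 and -0.42 at Day 4 in TPM (log2), by -0.13 at Day 2 in FPKM, and by -0.17 and -0.32 in normalised counts. With normalised counts, Aldh1l2 over Mthfd1 moved from -0.67 to -1.04 and Psph over Phgdh from -0.52 to -0.45 at Day 4. Aldh1l2 over Mthfd1 at Day 2 (-0.15) ranged from -0.36 to 0.12 with 1 library left out and turned positive without Day2_OHT replicate 3. The cause of these differences was not tested. With the block and the length trend removed, the Day 2 calls of Mat2a (adjusted p = 0.0935), Impdh2 (0.153) and Atf4 (0.0822) were lost. The block lowered the calls over all genes at Day 2 from 1240 lower and 1068 higher to 636 and 648. No scaling moved the median of all genes by over 0.1 (log2).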
